A study of Mus musculus with 2 samples.

Results

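The CREB and CREM transcription factors and their coactivators were followed as 8 listed genes, Crem, Creb1, Atf1, Creb3, Creb3l1, Creb3l2, Crtc2 and Crtc3, out of the 32285 genes counted in both libraries. The genes were taken by name from a list, with no threshold on their values, and all 8 passed the minimum of 100 unique molecular identifiers (UMIs, 1 per captured transcript) over both libraries. ILC2s, or group 2 innate lymphoid cells, reside in the lung without antigen receptors and release IL-5 and IL-13. They were sorted as live, lineage-negative cells that bore CD90.2 and ST2 together with Sca-1, pooled over several C57BL/6J mice of a genotype, sex- and age-matched young adults, and profiled by droplet 3' scRNA-Seq. There was 1 WT library and 1 Pac1-KO library, from Pac1-/- mice, which lack the phosphatase PAC1 (gene Dusp2), and no treatment of the mice or cells is stated for either. A barcode entered when it showed 500 genes or more and no more than 10% of its UMIs were mitochondrial, which left 8394 in WT and 7087 in Pac1-KO.

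CREB1, CREM and ATF1 are leucine-zipper factors that bind the cAMP response element (CRE, TGACGTCA, or its core TGACG) and are switched on when protein kinase A or another kinase phosphorylates them after a rise in cAMP. The Crem gene also carries an internal cAMP-inducible promoter that yields the short repressor ICER, which 3' end counting cannot tell from other Crem transcripts. The CREB3 branch is anchored in the membrane of the endoplasmic reticulum and is released by the Golgi proteases that Mbtps1 and Mbtps2 encode, whereas the CRTC coactivators are held in the cytosol by salt-inducible kinases (SIKs) and freed by calcineurin. In lung ILC2s, cAMP is raised by receptors such as that for calcitonin gene-related peptide (CGRP), a peptide encoded by Calca, and the comparison asked how loss of PAC1 changes this axis.

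The passing barcodes held 54579034 UMIs in WT (median 4186.5 per barcode) and 58338886 in Pac1-KO (median 5577), and 29 barcode sequences occurred in both libraries, 15 of them among the passing ones. Dusp2, the targeted gene, was counted 1419 times in WT and 5 times in Pac1-KO. At least 2 of 8 ILC2 markers were found in 98.8% and 98.7% of barcodes. Barcodes with at least 2 erythroid markers made up 0.79% of WT and 2.95% of Pac1-KO, with a summed level of 70.1 and 246 CPM (UMIs scaled to the library total) over 3 markers, none of them at 0. Those with at least 2 epithelial markers made up 0.79% and 2.43%, with 54.0 and 79.1 CPM over 4 markers, again none at 0. No other cell type passed 0.32%. With 1 library per genotype no test between genotypes was possible. All 95% intervals below cover counting error only, and differences between mice, sorts and libraries cannot be told apart from genotype. The median gene of the 11440 with at least 100 UMIs had a log2 ratio of 0.188 in Pac1-KO over WT. Each difference is therefore given as a log2 ratio relative to that median (relative log2 ratio) unless the text says as counted. Ratios within or between groups of cells are relative to the median gene of their own contrast.

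Among the 8 genes, Crem, Creb3l1 and Creb3l2 were at least 1.5 times lower in Pac1-KO than in WT relative to the median gene, no gene was 1.5 times higher, and 5 lay between. Over all tested genes, 11.8% were lower and 7.07% higher by that fold. The members were chosen with earlier results of these data known, so these shares stand beside them as a description. As counted, 3 of the 8 were lower too, beside 7.4% of all tested genes. The median relative log2 ratio of the 8 genes was -0.19. Crem, the cAMP-inducible member, thus stood apart from the constitutive factors Creb1 and Atf1, and the pair of lower genes of the CREB3 branch stood apart from Creb3.

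Of the 8 genes, Crem was by far the most counted, at 450.6 CPM in WT (445.0 to 456.3, 24594 UMIs) and 222 CPM in Pac1-KO (218 to 226, 12964 UMIs). Its relative log2 ratio was -1.21 (-1.24 to -1.18), a level of 0.433 times that expected from the median gene, and -1.02 as counted. Crem supplied 56.5% of the UMIs of the 8 genes in WT and 39.6% in Pac1-KO. The barcodes left out for few genes or high mitochondrial content, which entered none of these sums, showed the same order, with 387 CPM in WT (357 to 418) and 129 CPM in Pac1-KO (113 to 146). Without the barcodes that carried markers of another cell type or had no UMI of Gata3 or Il1rl1, the relative log2 ratio of Crem was -1.20. Crem lies at chr18:3266048-3337748 on the minus strand (GRCm38, as all coordinates here).

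Creb1, the archetypal cAMP-responsive activator (chr1:64532645-64604548, plus strand), was counted at 108 CPM in WT (105 to 111) and 107 CPM in Pac1-KO (105 to 109.9). The 2 libraries were level as counted (-0.01, -0.06 to 0.04), and the relative log2 ratio was -0.20. Atf1, which pairs with CREB1 and CREM (chr15:100227819-100261244, plus strand), was counted at 45.7 CPM in WT (43.9 to 47.5) and 53.8 CPM in Pac1-KO (52.0 to 55.8). That was above WT as counted (0.24, 0.16 to 0.31) and at the median gene on the relative scale (0.05, -0.03 to 0.12). Neither gene came near the 1.5-fold that Crem passed.

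In the membrane-bound branch, Creb3l2 (also called BBF2H7, a regulator of secretory capacity, chr6:37327255-37442146, minus strand) was counted at 42.1 CPM in WT (40.4 to 43.8) and 24.6 CPM in Pac1-KO (23.3 to 25.9), a relative log2 ratio of -0.96 (-1.06 to -0.87). Creb3l1 (OASIS, its closest relative, chr2:91982328-92024502, minus strand) was rare, at 8.30 CPM in WT (453 UMIs) and 4.06 CPM in Pac1-KO (237 UMIs), with a relative log2 ratio of -1.22 (-1.45 to -0.99). Its ratio was the least settled of the lower genes, because after every cell was thinned to the same depth it read -0.71 (-1.26 to -0.18), from 79 WT and 43 Pac1-KO cells with a UMI. Creb3 (Luman, chr4:43562332-43567060, plus strand) went the other way, from 8.45 CPM in WT (461 UMIs) to 11.6 CPM in Pac1-KO (678 UMIs), a relative log2 ratio of 0.27 (0.10 to 0.45). The 3 genes of this branch therefore did not move as a group.

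The coactivators were level as counted and slightly below the median gene. Crtc3 (chr7:80586627-80688877, minus strand) was counted at 112 CPM in WT (109 to 114) and 114 CPM in Pac1-KO (112 to 117), and Crtc2 (chr3:90254163-90264125, plus strand) at 23.3 CPM (22.0 to 24.6) and 23.4 CPM (22.2 to 24.7). Their relative log2 ratios were -0.15 (-0.20 to -0.10) for Crtc3 and -0.18 (-0.29 to -0.07) for Crtc2, and as counted they were 0.04 and 0.01. Since 3' counting takes 1 molecule per transcript whatever its length, the genes were ordered by CPM within a library. Differences in capture between genes were not tested. In WT the order was Crem, Crtc3, Creb1, Atf1, Creb3l2, Crtc2, Creb3 and Creb3l1, with overlapping intervals for Crtc3 and Creb1 and for Creb3 and Creb3l1. In Pac1-KO Creb3l2 had come down to the level of Crtc2 (intervals overlapping), while Creb3l1 was the lowest with no overlap with Creb3.

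**Figure D1:**
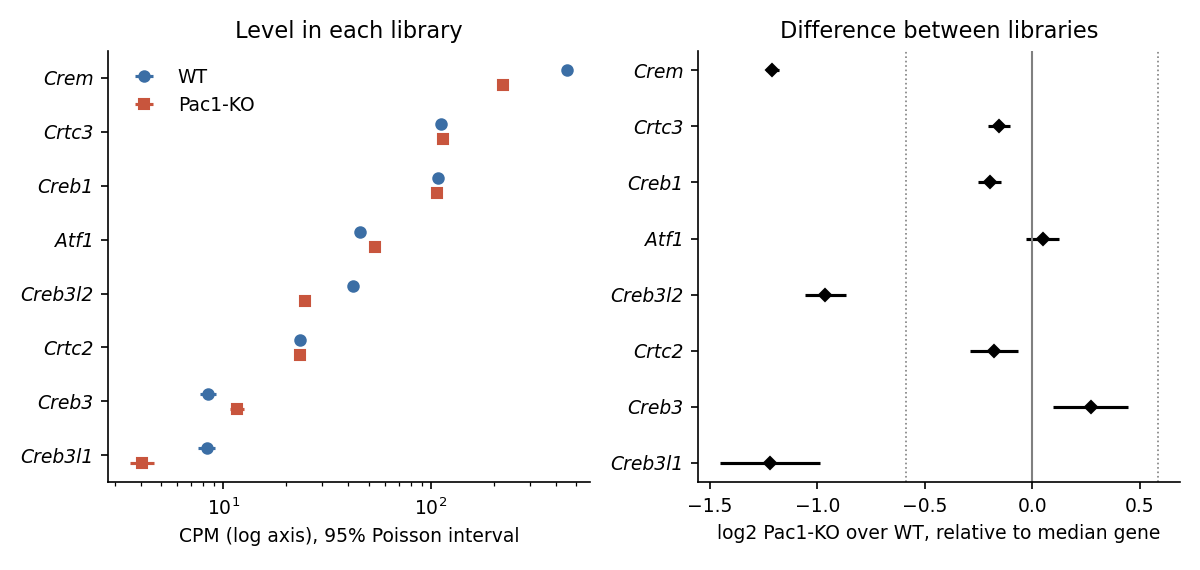
Left, CPM (log axis) of the 8 genes in the WT (circles) and Pac1-KO (squares) library with 95% Poisson intervals; right, the log2 ratio relative to the median gene with its 95% counting interval and dotted lines at 1.5-fold. Crem, Creb3l2 and Creb3l1 lie left of the lower dotted line, and the other 5 genes lie between the lines.

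Shares of cells with at least 1 UMI were read as well. After thinning to 1500 UMIs (7634 WT and 6564 Pac1-KO cells, with 760 and 523 shallower ones left out), a Crem UMI was present in 32.6% of WT (31.5 to 33.7) and 18.7% of Pac1-KO cells (17.8 to 19.7). Without thinning the shares were 54.0% and 40.8%, and in Pac1-KO that was below Crtc3 (48.6%) and Creb1 (43.9%), although Crem was first by CPM and by thinned shares. Creb3l2 was found in 5.54% (5.04 to 6.08) and 3.44% (3.02 to 3.91) of thinned cells. The thinned shares for Creb1 were 13.9% and 14.7%, and those for Crtc3 were 14.8% and 15.5%. Atf1 was found in 5.74% and 7.68%, Crtc2 in 3.35% and 3.76%, and Creb3 in 1.28% and 1.71%. For Creb3l1 the shares were 1.03% in WT (0.82 to 1.29) and 0.655% in Pac1-KO (0.474 to 0.881). Barcodes with B cell markers, read as a background for free RNA, held a Crem UMI in 1 of 10 in WT and 5 of 23 in Pac1-KO at median depths of 4297.5 and 4652 UMIs. Such few cells set no useful limit, and B cells can express these genes. Free RNA would enter the CPM as well as the shares, and its part in either was not tested.

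Cells were next split within each library by whether Calca, Il5 or Il13 had a UMI after thinning, and the levels of the 8 genes were compared between positive and negative cells with the 3 status genes left out of the totals. Calca-positive cells made up 30.6% in WT and 21.6% in Pac1-KO, Il5-positive cells 33.0% and 19.6%, and Il13-positive cells 13.8% and 9.11%. Among the barcodes with B cell markers, which should lack these transcripts, Calca was found in 3 of 10 in WT (interval 6.67% to 65.2%) and 3 of 23 in Pac1-KO (2.78% to 33.6%), Il5 in 4 of 10 and 2 of 23, and Il13 in 2 of 10 and 0 of 23. In both libraries each share lies inside the interval of these barcodes, in Pac1-KO 1.07% to 28.0% for Il5 and 0% to 14.8% for Il13. With 10 and 23 such barcodes the intervals are wide, so the shares can be neither told apart from that background nor assigned to it. Positive below means only that a UMI was counted, not that the cell expressed the gene. How far free RNA, or barcodes that hold a B cell and an ILC2, set the status was not tested, and the shares are not read as a difference between the libraries. The median gene of these contrasts had a log2 ratio of positive over negative cells between -0.18 and -0.10. Relative to it, Crem was at least 1.5 times higher in positive cells in each contrast, and Creb3l1 in each except by Il13 in Pac1-KO. As counted, Crem was 1.42 times higher by Il13 in WT, short of the fold. The other 6 genes did not reach 1.5-fold in any contrast. Cells of 1 library are not replicates, so these are descriptions, given for both libraries side by side.

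Crem was counted at 655 CPM in Calca-positive and 329 CPM in Calca-negative WT cells, and at 404 and 160 CPM in Pac1-KO. The relative log2 ratio of positive over negative cells was 1.12 (1.09 to 1.16) in WT and 1.46 (1.41 to 1.51) in Pac1-KO. By Il5 it was 1.06 in WT (626 against 332 CPM) and 1.48 in Pac1-KO (401 against 163 CPM). By Il13 it was 0.60 in WT (600.5 against 424 CPM, 0.50 as counted) and 1.26 in Pac1-KO (428 against 198 CPM). The positive cells had the higher Crem level in each of these contrasts, and the ratio was larger in Pac1-KO, where both kinds of cells held less Crem than in WT.

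Creb3l1 ran with Crem at a far lower level. In WT it was counted at 12.1 CPM in Calca-positive and 6.13 CPM in Calca-negative cells, and in Pac1-KO at 6.84 and 3.08 CPM, relative log2 ratios of 1.12 (0.84 to 1.39) and 1.28 (0.89 to 1.66). By Il5 the ratios were 1.24 and 1.36. By Il13 the ratio was 0.78 (0.45 to 1.10) in WT, and in Pac1-KO, with 31 UMIs in the positive cells, it was 0.46 with an interval that spans 0 (-0.14 to 1.01). Under the alternative settings this last ratio ran from -0.42 to 1.01, so no direction is read from it.

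Counted by the 1.5-fold rule, 2 of the 8 genes were higher in Calca-positive cells in WT, where 2.9% of all tested genes were, and 2 in Pac1-KO, where 3.3% were. For Il5 the count was 2 in WT (3.35% of all tested genes) and 2 in Pac1-KO (4.95%). For Il13 it was 2 in WT (1.28%) and 1, Crem, in Pac1-KO (4%). The Il13 calls in WT were lost under several settings, since Crem ran from 0.44 to 0.84 and Creb3l1 from 0.17 to 0.85 over the alternatives. None of the 8 was 1.5 times lower in positive cells, against 1.24% of all tested genes by Calca, 1.33% by Il5 and 2.46% by Il13 in WT, and 1.34%, 1.83% and 3.76% in Pac1-KO. Of the other 6 genes, Creb3l2 came closest to the fold, at 0.41 by Il13 in WT (50.4 against 40.7 CPM). When positive meant 2 thinned UMIs or more, Creb3l2 passed the fold by Il5 in WT (0.60) and by Il13 in WT (0.60) and Pac1-KO (0.61), and with levels from thinned counts by Il13 in Pac1-KO (0.64). Creb1 lay between 0.24 and 0.32 by Calca and Il5 in both libraries. Crtc3 lay at or below the median gene in each contrast, from -0.18 to -0.01.

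**Figure D2:**
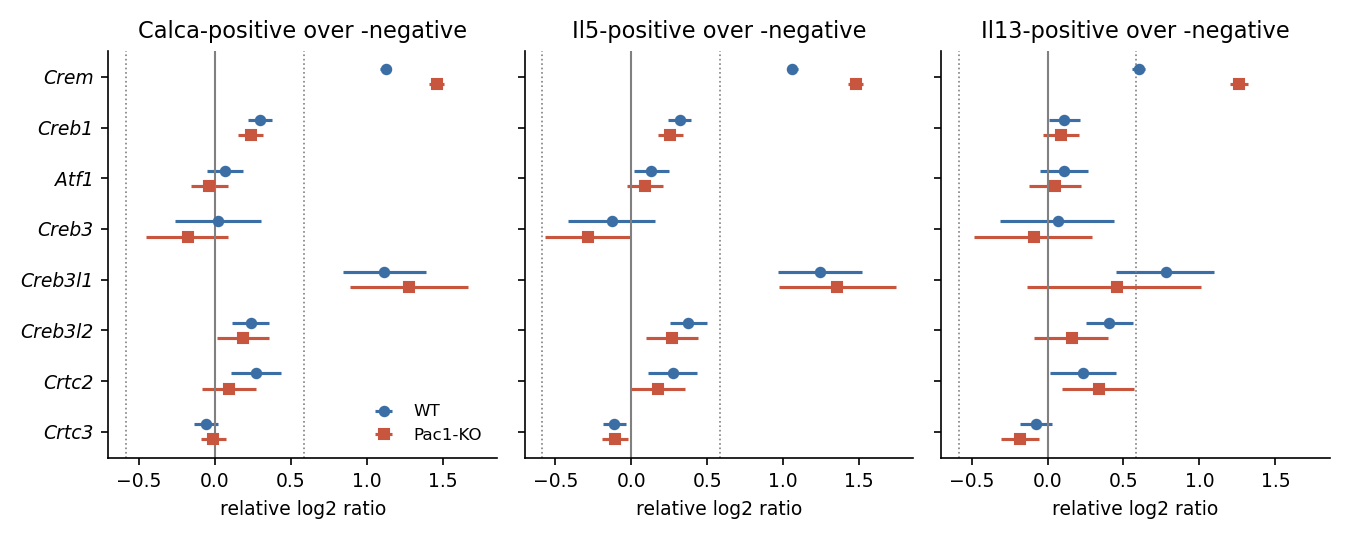
Log2 ratio of positive over negative cells, relative to the median gene, for the 8 genes split by Calca, Il5 and Il13 in the WT (circles) and Pac1-KO (squares) library, with 95% counting intervals and dotted lines at 1.5-fold. Crem and Creb3l1 lie to the right of the other 6 genes in each contrast. By Il13 in Pac1-KO, Creb3l1 lies inside the 1.5-fold line and its interval spans 0.

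Depth moved with status. Calca-positive cells had a median of 5389 UMIs against 4182.5 in WT and 6981.5 against 5616.5 in Pac1-KO, although status had been read at equal depth. The Crem level also rose with the depth of the cell, from 310 CPM in the shallowest of 5 equal groups of WT barcodes to 490 CPM in the deepest. In Pac1-KO it went from 143 CPM in the shallowest group to 258 CPM in the next to deepest and 233 CPM in the deepest. With positive and negative cells compared inside such groups and the ratios combined, the Crem ratio by Calca was 1.06 in WT and 1.41 in Pac1-KO, close to the values above.

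Grading the cells by their number of Calca UMIs, a split chosen after the first result, gave a stepwise picture. In WT the Crem level was 329 CPM at 0 Calca UMIs, 536 at 1, 703 at 2, 804 at 3 to 4 and 1136 CPM at 5 or more. In Pac1-KO it was 160, 297, 461, 568 and 778 CPM over the same steps. The level rose at each step in both libraries, with no overlap of the intervals, and at each step Pac1-KO lay below WT. Creb3l1 went from 6.13 to 15.5 CPM in WT and from 3.08 to 13.0 CPM in Pac1-KO between the first and the last step, with wide intervals at the end (12 UMIs in Pac1-KO). Creb3l2 showed no such gradient. It lay between 41.0 and 49.9 CPM at every step in WT and between 22.5 and 28.3 CPM in Pac1-KO.

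**Figure D3:**
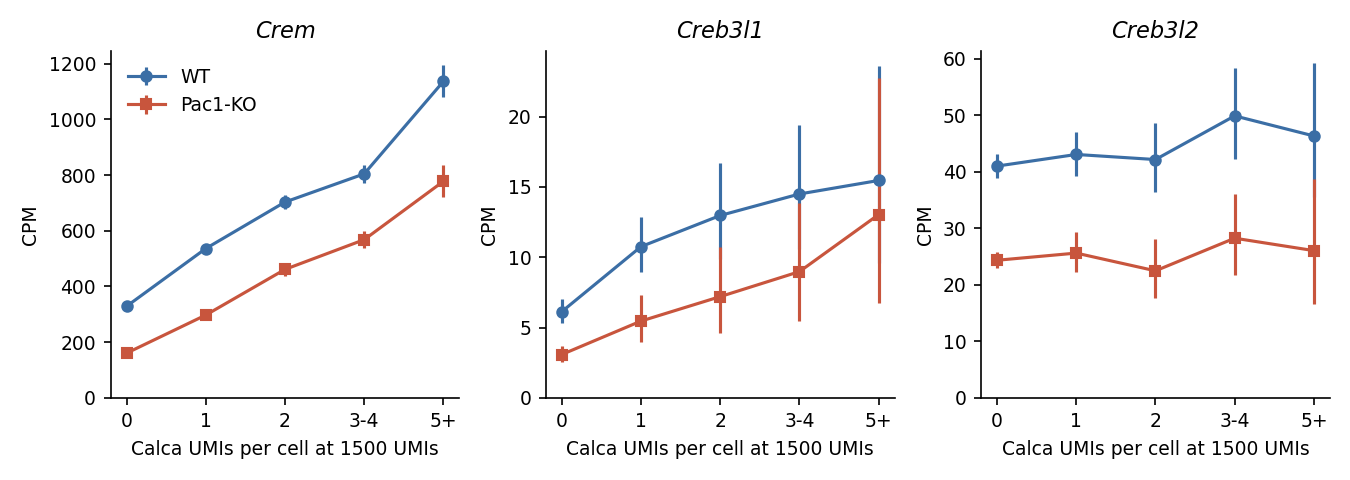
CPM of Crem, Creb3l1 and Creb3l2 against the number of Calca UMIs per cell at 1500 UMIs (0, 1, 2, 3 to 4, 5 or more) in the WT (circles) and Pac1-KO (squares) library, with 95% Poisson intervals. Crem climbs from 329 to 1136 CPM in WT and from 160 to 778 CPM in Pac1-KO, whereas Creb3l2 stays flat in each library with Pac1-KO below WT.

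The difference between libraries was then read inside each status. Among Calca-negative cells the relative log2 ratio of Crem, Pac1-KO over WT, was -1.21 (-1.26 to -1.17), and among Calca-positive cells it was -0.86 (-0.91 to -0.82). For Creb3l2 it was -0.93 (-1.05 to -0.81) in negative and -0.97 (-1.15 to -0.79) in positive cells. For Creb3l1 it was -1.17 and -0.99, with intervals that overlap. Each of the 3 lower genes was thus lower in both strata, and the size differed between strata beyond counting error for Crem alone.

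By the 3 status genes at once, each library fell into 8 groups of cells. Cells with none of the 3 held Crem at 241 CPM in WT (234 to 247, 3555 cells) and 116 CPM in Pac1-KO (112 to 119, 4134 cells), and cells with all 3 held it at 822 CPM in WT (787 to 859, 271 cells) and 718 CPM in Pac1-KO (672 to 765, 119 cells). The relative log2 ratio of Pac1-KO over WT was below 0 with its whole interval in 8 of 8 groups. It was -1.22 (-1.28 to -1.15) in cells with none, -0.97 in cells with Calca alone and -0.81 in cells with Il5 alone. It was -0.30 (-0.45 to -0.14) in cells with Calca and Il13 and -0.24 (-0.36 to -0.13) in cells with all 3. The libraries lay furthest apart in the cells without any of the 3 transcripts and closest in those with all of them.

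Creb3l2 did not share that gradient. Its relative log2 ratio was below 0 with its whole interval in 8 of 8 groups as well, from -0.69 to -1.38, although the group with Calca and Il13 alone, at 65 and 28 UMIs, is under the minimum of 100. It stood at -0.88 (-1.03 to -0.74) in cells with none and -1.38 (-1.98 to -0.83, 32 UMIs in Pac1-KO) in cells with all 3. The counted shares of the groups were unequal as well, with 46.6% of WT and 63.0% of Pac1-KO cells in the group with none. When the Pac1-KO groups were weighted as in WT, the log2 ratio as counted went from -1.02 to -0.68 for Crem and from -1.05 to -0.77 for Creb3l1, and stayed at -0.78 against -0.76 for Creb3l2. These weighted values were chosen after the earlier results and have no interval. The groups, set at 1500 UMIs, leave cells with few transcripts of a status gene among the negative ones. The part of free RNA in the status was not tested either, so no part of a difference is assigned to the mix of groups.

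**Figure D4:**
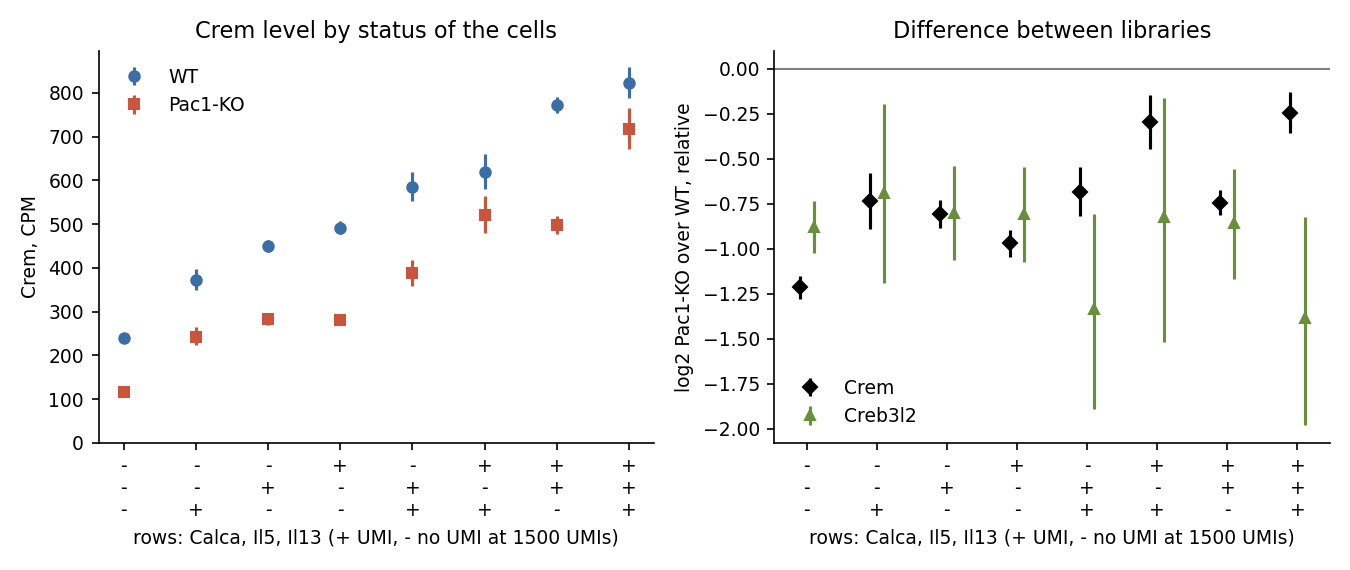
Left, Crem CPM with 95% Poisson intervals in 8 groups of cells set by Calca, Il5 and Il13 status, ordered by the WT level; right, the relative log2 ratio of Pac1-KO over WT for Crem and Creb3l2 in the same groups with 95% counting intervals. For Crem the ratio runs from -1.22 in cells with none of the 3 transcripts to -0.24 in cells with all 3, and every point of both genes lies below 0.

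The genes most like Crem were sought by Pearson's r of log2(CPM + 1) over the 16 groups (8 in each library) among 5492 genes with at least 2000 UMIs, with the 3 status genes left out. The r values describe 16 groups that share 2 libraries and have no p. The 10 at the top were Chd7 (r = 0.985), a chromatin remodeller, Lmo4 (0.984), a LIM-domain cofactor, Dusp5 (0.980), an ERK phosphatase, Ell2 (0.977), an elongation factor, Eprs (0.977), a tRNA synthetase, Isy1 (0.976), a splicing factor, Ramp3 (0.975), a receptor subunit of the calcitonin family, Zc3hav1 (0.975), an antiviral RNA-binding protein, Nr3c1 (0.974), the glucocorticoid receptor, and Ldha (0.971), lactate dehydrogenase. Each of them kept r above 0.96 within the 8 groups of either library alone. At the other end were Gimap3 (-0.966), Dennd1c (-0.964) and Idnk (-0.951). Among the members with enough counts, Crtc3 had negative r within the groups of WT (-0.79) and of Pac1-KO (-0.69). For the others r differed between the libraries, at 0.66 in WT and 0.18 in Pac1-KO for Creb3l2, 0.58 and 0.09 for Creb1, 0.50 and 0.13 for Crtc2, and -0.11 and -0.81 for Atf1.

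Around the 8 genes, 4 lists of pathway genes were read in the same way between the libraries. The lists were chosen with earlier results of these data known, so their counts beside all tested genes are descriptions and no test. Of 18 genes known as cAMP or CREB targets, all tested, 8 were at least 1.5 times lower in Pac1-KO relative to the median gene, against 11.8% of all tested genes, 0 were higher, and the median was -0.50 against 0 for all tested genes. As counted, without the shift of the median gene, 4 were lower, against 7.4%. Nr4a3 and Nr4a1, orphan nuclear receptors induced early by cAMP, were counted at 706 against 355 CPM (-1.18) and at 1882 against 1133 CPM (-0.92), WT first. Gpr65, a proton-sensing receptor that raises cAMP, was counted at 407 against 155 CPM (-1.58), and Nfil3, a leucine-zipper repressor needed for ILC development, at 115 against 71.9 CPM (-0.87). The other lower ones were Calca (-0.68), the signalling regulator Rgs2 (-0.64), the kinase Sik1 (-0.62) and the cAMP phosphodiesterase Pde4b (-0.59), the last only just past the fold. Nr4a2 lay inside it at 506 against 419.5 CPM (-0.46). The immediate early genes Fos (0.02) and Junb (0.02) were at the median gene, Fosb was above it at 2270.5 against 2940.3 CPM (0.18), and Dusp1, a MAP kinase phosphatase, was at 0.33. Calca, Gpr65, Pde4d, Crem itself, a Creb3l gene and Lmo4 were named by the study as genes of the CGRP axis in other experiments on treated cells of these genotypes, so none of them is independent of the study.

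Of 19 kinases, phosphatases and their subunits acting on CREB or CRTC, 17 were tested, 2 were lower and 0 higher, with a median of -0.31. This share of the list matches the 11.8% of all tested genes that were lower. As counted, none was lower. The lower ones were Sik3 (128 against 94.6 CPM, -0.63) and Sik1 (570 against 421 CPM, -0.62), and Sik2 lay just inside the fold (70.2 against 53.5 CPM, -0.58), all 3 of them kinases that restrain the CRTC proteins. Others lay above the median gene, such as the calcineurin subunit Ppp3cb (0.38), Camk2d (0.25) and Prkar2a (0.18). Camk4, a calcium-dependent CREB kinase, stood at -0.51 (53.6 against 42.9 CPM). Of 12 other CREB/ATF genes and coactivators, 9 were tested and 1 was lower, the stress-induced Atf3 (880 against 636 CPM, -0.66), which as counted was not, again a share near the 11.8% of all genes. The acetyltransferase gene Crebbp was at -0.35, Atf7 at -0.23 and Crebzf at 0.20. Of 11 genes of the CREB3 branch (its proteases and secretory machinery), 10 were tested and none passed the fold in either direction (median -0.08). The furthest from the median gene were Kdelr2, the receptor that returns proteins to the endoplasmic reticulum (18.3 against 30.1 CPM, 0.53), Herpud1 (-0.46), Dad1 (-0.44) and Sec61a1 (-0.31). With 10 genes, a count of 0 is near the 11.8% over all genes and says nothing of the list.

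**Figure D5:**
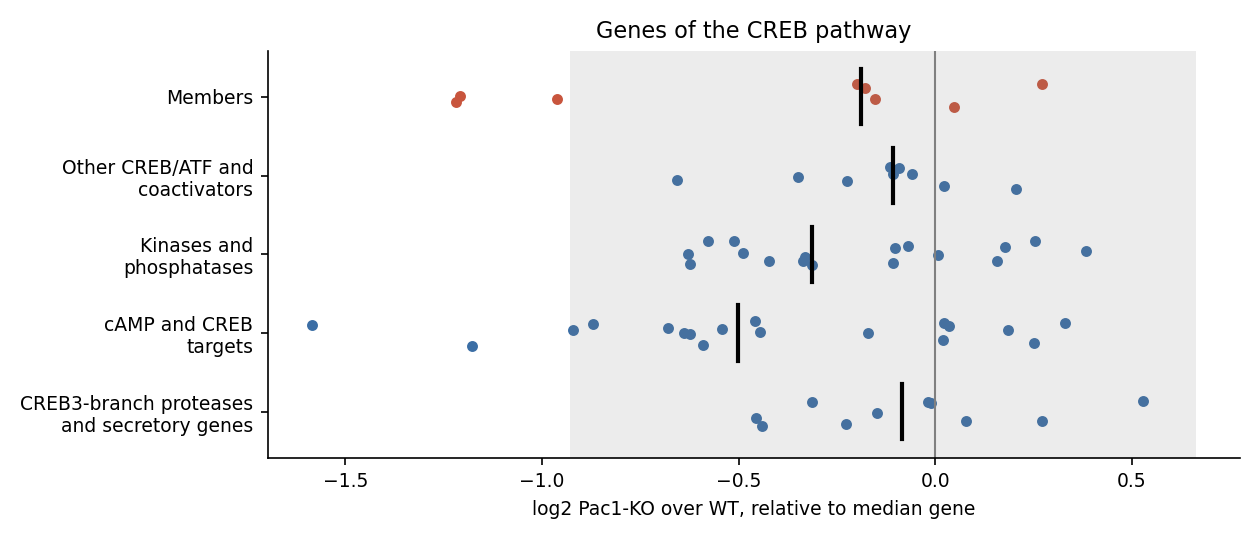
Log2 ratio of Pac1-KO over WT relative to the median gene for the 8 members and the tested genes of 4 pathway lists, 1 point per gene, with the list median as a black bar; points are spread vertically for sight only. The grey band holds the 5th to 95th percentile of all tested genes (-0.93 to 0.66), and the target genes lie furthest to the left with a median of -0.50.

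Within each library, cells with a thinned Crem UMI (2488 in WT and 1228 in Pac1-KO) were set against those without, a split also chosen afterwards. Of the 18 target genes, 6 were at least 1.5 times higher in Crem-positive WT cells, where 4.41% of all tested genes were, and 12 in Pac1-KO, where 5.96% were. The 6 of WT were all among the 12, and they included Calca, by which the cells had been split before. The median gene of this split had a log2 ratio of -0.16 in WT and -0.20 in Pac1-KO. As counted, Rgs2 (0.56) and Areg (0.51) fell short of the fold in WT, and Nr4a2 (0.53), Sik1 (0.44) and Pde4b (0.54) in Pac1-KO. Nr4a3 had relative log2 ratios of 1.004 in WT (969 against 541 CPM) and 1.36 in Pac1-KO (626 against 280 CPM), Gpr65 of 0.93 and 1.05, and Areg, the growth factor amphiregulin, of 0.67 and 0.94. Fos (0.02 and 0.14), Fosb (0.02 and 0.15) and Dusp1 (0.05 and 0.07) hardly differed between Crem-positive and Crem-negative cells. Of the members, Creb3l1 was again the one that went with Crem (1.44 and 1.26), beside 0.28 and 0.41 for Creb3l2 and 0.36 and 0.26 for Creb1. Depth and the share of Calca-positive cells differ along this split too, and their part was not tested.

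The promoters were then searched for TGACG on either strand over the 300 bases from 250 before to 50 after the RefSeq start (GRCm38.p6). Of the 8 members, 5 had an entry (Crem, Creb3l1 and Crtc2 had none), and 2 of those held a match, Atf1 and Creb3l2, with 1 each. Of 16 target genes with an entry 14 held a match, beside 20.9% of 32544 promoters of that length. The shares are not alike, since a gene with several RefSeq starts was counted when any of its promoters held a match, and of the 4 promoters of Pde4b 1 did. The full TGACGTCA, which contains TGACG on both strands, was found in 3 of the 16, Dusp1, Areg and Ppp1r15a, beside 1.8% of all promoters. None of those 3 was lower by 1.5 times in Pac1-KO (median 0.03), beside 11.8% of all tested genes. Of the 11 with TGACG alone 6 were lower (median -0.59), and of the 2 with neither, Pde4d and Gpr65, 1 was (median -1.06). With 3 genes, none lower is near the share over all genes, so no contrast between these groups of promoters is read. The target list was made of known cAMP-responsive genes, so the high share of matches is no finding, and a match is a run of letters and not a measured binding site. Shown are the one lower member with a match, Creb3l2, then Calca, by which the cells were split, then Nr4a1 and Nr4a3, which were lower and hold 4 matches each (4 or more occur in 0.234% of all promoters, and Nr4a2, at -0.46 not lower by 1.5 times, also holds 4), and last Dusp1 and Areg, which were not lower and hold the full element. Capitals mark TGACG or, on the opposite strand, CGTCA, and the sequences run 5' to 3' on the strand of the gene.
Creb3l2 (chr6:37442099-37442398, minus strand): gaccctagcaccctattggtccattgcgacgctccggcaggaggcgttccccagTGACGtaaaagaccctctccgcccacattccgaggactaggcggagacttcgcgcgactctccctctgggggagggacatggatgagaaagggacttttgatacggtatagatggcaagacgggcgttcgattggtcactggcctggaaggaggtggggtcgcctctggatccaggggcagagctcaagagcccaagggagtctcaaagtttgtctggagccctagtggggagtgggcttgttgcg
Calca (chr7:114636308-114636607, minus strand): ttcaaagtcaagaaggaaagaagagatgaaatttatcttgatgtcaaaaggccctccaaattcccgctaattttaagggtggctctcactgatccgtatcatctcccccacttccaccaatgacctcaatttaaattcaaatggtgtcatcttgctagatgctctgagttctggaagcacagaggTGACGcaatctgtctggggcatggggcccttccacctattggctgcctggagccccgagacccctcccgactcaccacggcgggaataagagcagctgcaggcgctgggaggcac
Nr4a1 (chr15:101266596-101266895, plus strand): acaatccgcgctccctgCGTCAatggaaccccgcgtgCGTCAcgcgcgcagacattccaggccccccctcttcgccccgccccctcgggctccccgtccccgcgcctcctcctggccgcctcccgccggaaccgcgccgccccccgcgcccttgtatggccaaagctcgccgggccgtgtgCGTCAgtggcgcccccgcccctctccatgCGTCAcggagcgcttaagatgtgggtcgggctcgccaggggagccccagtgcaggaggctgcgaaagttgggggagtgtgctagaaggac
Nr4a3 (chr4:48045055-48045354, plus strand): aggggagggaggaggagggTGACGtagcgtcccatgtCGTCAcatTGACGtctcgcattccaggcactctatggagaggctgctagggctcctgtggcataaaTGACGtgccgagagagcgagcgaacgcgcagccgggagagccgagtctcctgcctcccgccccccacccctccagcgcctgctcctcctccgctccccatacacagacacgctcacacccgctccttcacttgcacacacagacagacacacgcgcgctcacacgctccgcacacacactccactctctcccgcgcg
Dusp1 (chr17:26508423-26508722, minus strand): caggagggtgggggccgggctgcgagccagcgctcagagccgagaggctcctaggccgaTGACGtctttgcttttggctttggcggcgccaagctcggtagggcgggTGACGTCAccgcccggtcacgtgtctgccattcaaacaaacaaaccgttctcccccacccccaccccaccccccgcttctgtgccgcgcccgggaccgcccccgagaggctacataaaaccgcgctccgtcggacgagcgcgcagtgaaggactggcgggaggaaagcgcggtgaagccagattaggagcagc
Areg (chr5:91139349-91139648, plus strand): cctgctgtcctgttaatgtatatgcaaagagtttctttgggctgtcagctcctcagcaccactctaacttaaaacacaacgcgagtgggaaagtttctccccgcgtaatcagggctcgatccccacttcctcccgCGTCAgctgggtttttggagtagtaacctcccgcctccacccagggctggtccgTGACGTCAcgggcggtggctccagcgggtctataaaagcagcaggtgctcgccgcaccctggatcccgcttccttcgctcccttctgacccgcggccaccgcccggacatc
In Creb3l2 the match begins 196 bases before the start, in Calca 65 bases before it. The matches of Nr4a3 lie together, between 231 and 147 bases upstream, and those of Nr4a1 fall into an upstream pair at 233 and 213 bases and a pair nearer the start at 69 and 40 bases.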

How the data were processed

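The authors sorted and pooled lung ILC2s of each genotype and made the libraries with 10x Genomics 3' v3.1 chemistry, loading 13000 cells each per the labels. The deposited values are unnormalized UMI counts for each gene in each barcode, aligned to mm10 with Cell Ranger (version 6.1.1 in the submitters' notes, 4.0.0 in the file header). The annotation release is not given in the sources used here. The study retained fewer cells of each genotype than pass the filter here, and its own selection was not analysed here, so the sets of cells differ.

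Counts were summed over passing barcodes and divided by the total to give CPM, with exact Poisson intervals. Ratios carry exact conditional binomial and shares exact Clopper-Pearson intervals at the 95% level, and all of them cover counting error only. Genes with at least 100 UMIs over the groups compared were tested against the 1.5-fold rule, which is a size and not a test. Predicted doublets were kept, as the member rule has no such filter, and an alternative removed 730 WT (8.70%) and 538 Pac1-KO (7.59%) barcodes. For status, each cell was thinned to 1500 UMIs, the largest depth tried that kept 90% of the barcodes of each library, and levels came from the full counts of the same cells. The sums and intervals were tested on simulated data. The tools were scipy 1.17.1 with numpy 2.4.6, scikit-learn 1.9.0, pandas 2.3.3 and matplotlib 3.10.9 under Python 3.11.15.

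Coordinates come from GENCODE for GRCm38. Genes overlap on the opposite strand at Crem (Gm6225), Creb3 (Tln1 and Gba2) and Crtc3 (Gm15880), and on the same strand at Crtc3 (Gm44931, outside the last 500 bases). The members and gene lists were chosen with earlier results of these data known. Genes were named by rule: all members, Dusp2, the 4 genes of each list furthest from the median gene, Nr4a1, Nr4a2, Nr4a3, Sik1 and Fosb, and the 10 genes most and 3 least like Crem. Calca, Rgs2, Pde4b, Fos, Junb, Dusp1, Areg, Ppp1r15a, Ppp3cb, Camk2d, Prkar2a and the other genes were named after their values were seen. Alternatives were other scalings, barcode filters, depths, status rules and random draws.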

Additional observations from a re-analysis of the deposited data

How the results depend on the processing

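No leave-one-out was possible with 1 library per genotype. No paired analysis was possible because each genotype has 1 library and the result comes from no test. No member's ratio past 1.5-fold, between libraries or by status, changed sign under the alternatives tried, which were not run for single genes of the lists, the 8 joint groups or the split by Crem. Smaller ones did, such as Crtc3 between libraries (-0.15, and 0.04 as counted), Atf1 by Calca (0.07 in WT, down to -0.12, and -0.04 in Pac1-KO, up to 0.11) and Creb3l1 by Il13 in Pac1-KO (0.46, down to -0.42). The count of members lower in Pac1-KO was 3 under all 8 of them. The relative log2 ratio of Crem between libraries ran from -1.22 to -1.19 under the 7 others than the ratio as counted, which gave -1.02. As counted, the lower genes numbered 4 rather than 8 among targets, 0 rather than 2 among kinases and phosphatases and 0 rather than 1 among other CREB/ATF genes, where a minimum of 20 UMIs gave 2 by adding the rare Creb5.

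The Crem ratio by Calca status (1.12 in WT, 1.46 in Pac1-KO) moved to 1.39 and 1.54 with status from the full counts, 1.22 and 1.75 when positive meant 2 UMIs or more, 1.03 and 1.40 at 1000 UMIs, 1.44 and 1.86 with levels from thinned counts, 1.23 and 1.57 (1.565) without predicted doublets, and 1.06 and 1.41 (1.405) within depth groups. In Pac1-KO it was 1.53 without barcodes of other types. Over 20 other random draws the lowest values were 0.995 in WT and 1.30 in Pac1-KO, so the draw alone moves these ratios by more than their counting intervals. Within Calca-positive cells the difference between libraries (-0.86) was -1.06 with status from the full counts, -0.69 with 2 UMIs or more, -0.94 at 3000 UMIs, -0.75 with levels from thinned counts, and -0.94 to -0.81 over the draws. Within Calca-negative cells (-1.21) the draws gave -1.30 to -1.17. The gap between these strata was smallest with status from the full counts, and the cause was not tested. Depth limits Creb3l1 most, with 237 UMIs in Pac1-KO.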
